A study of Drosophila melanogaster with 6 samples.

Results

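The subject is the binding pattern of the Drosophila insulator protein BEAF-32 on chromosome arm 3L, the left arm of the third chromosome. The deposited peak list of the series was filtered for the sequence name chr3L, without the separate heterochromatin sequence of that arm, which gave 504 of 2609 peaks (19.3%). The study profiled wing imaginal discs, the larval epithelia that give rise to the adult wing, by chromatin immunoprecipitation and sequencing (ChIP-seq). Both groups of libraries came from discs of the wild-type strain Oregon R (Orgon R in the labels) at the third larval instar. The labels name no transgene, mutation or agent in either group. The antibody of the 4 ChIP libraries recognises the isoform BEAF-32B, and the 2 input libraries are chromatin without precipitation. Each preparation is described as 200 discs fixed with 1% formaldehyde for 10 min. A disc is a mixture of epithelial and other cells, so the list is an average over them.

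Insulator proteins bind DNA elements that lie between neighbouring regulatory domains. In reporter assays such elements stop an enhancer from acting on a promoter beyond them, or shield a transgene from the surrounding chromatin. BEAF-32 (boundary element-associated factor) was identified through its binding to a boundary element of a heat-shock gene domain, and is known to bind clusters of a short DNA motif, often close to the start sites of genes that lie back to back. Its genomic sites are frequently near borders of chromatin domains, which is why the order and spacing of peaks along an arm are of interest.

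The series holds a single list, and no label ties its rows to particular libraries. Each row holds a chromosome name, a start and an end, and nothing else, so the height, the reads, the spread between replicates and the input background of a peak were not measured here, and depth is unknown. The values below describe this list. Intervals cover the counting of peaks only, and peaks that lie close together are not independent. Differences between 3L and the arms 2L, 3R and X are given side by side without a test, because peaks are not replicates, and none of them is called particular to 3L. Positions are those of the deposited list, with starts counted from 1, and the sequence names are those of Release 5 of the fly assembly. On 2L, 3L and X the telomere lies at low coordinates and on 3R at high ones. The genes and DNA sequences at these positions were not analysed here.

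On 3L the peaks ran from chr3L:224095-225224, a peak of 1130 bp, to chr3L:23251333-23252183, a peak of 851 bp. No 2 of them overlapped. With the arm measured from coordinate 0 to the end of its last peak, 23.3 Mb, the density was 21.7 peaks per Mb (exact Poisson 95% interval 19.8 to 23.7). It lay next to that of 3R (21.8, interval 20.1 to 23.6), above that of 2L (16.7, 15.1 to 18.5) and below that of X (26.0, 23.9 to 28.2). The intervals of 3L and 3R overlapped almost wholly, while that of 3L met neither that of 2L nor that of X. These intervals assume independent counts, but counts of 1-Mb windows varied more than that on each arm. Their variance was 3.62 times their mean on 3L, 6.72 on 2L, 3.46 on 3R and 2.97 on X. The intervals are therefore too narrow, and their separation does not settle a difference between arms. The peaks covered 364 kb, or 1.56% of the arm, against 1.19% on 2L, 1.61% on 3R and 1.801% on X.

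The profile from telomere to centromere began with a rich region and then alternated. In 1-Mb windows counted from the telomere end, the first 5 windows held 33, 25, 10, 42 and 24 peaks. The next 5 held 15, 13, 24, 43 and 26 peaks. Windows 11 to 15 held 12, 21, 17, 14 and 16 peaks, so that none of these 5 reached the average of the 23 full windows, which was 21.9 ± 8.89 peaks (SD over windows). Windows 16 to 20 held 19, 21, 27, 18 and 26 peaks, and windows 21 to 23 held 25, 23 and 9. Windows 16, 17 and 19 thus also stayed below that average. Counts of neighbouring full windows were almost uncorrelated along the arm (Pearson coefficient 0.003). The unfinished last window held 1 peak.

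**Figure D1:**
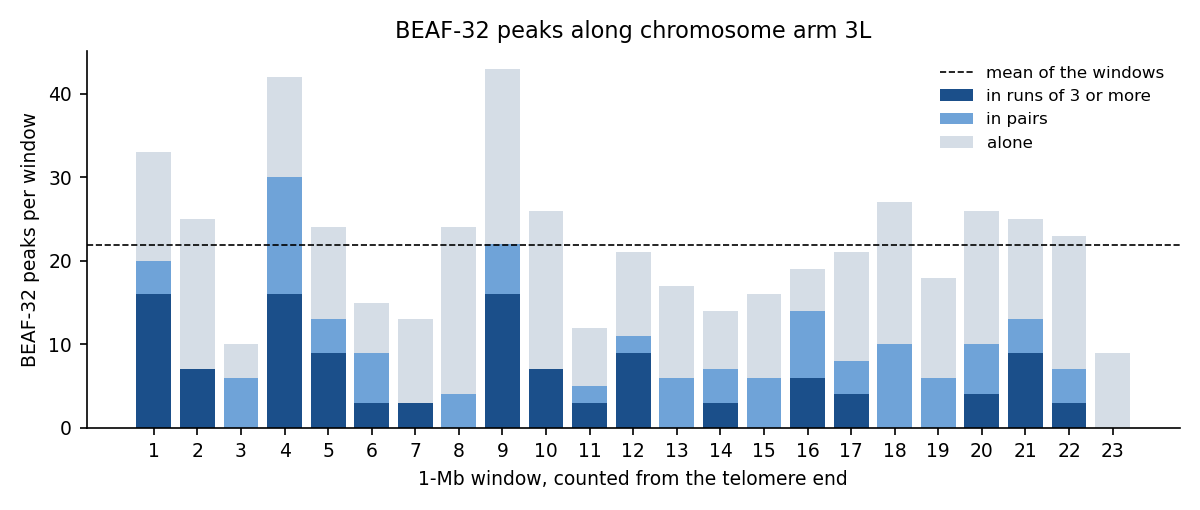
Number of BEAF-32 peaks (vertical axis) in each full 1-Mb window of 3L, counted from the telomere end (horizontal axis), with peaks split into those in runs of 3 or more, in pairs and alone (neighbours linked at midpoints up to 5 kb apart). Windows 9, 4 and 1, with 43, 42 and 33 peaks, stand above the dashed mean of 21.9, and the last full window, with 9 peaks, is the lowest and has no close neighbours.

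The 5 densest windows, with a tie for the fifth place, were chr3L:8000001-9000000 (43 peaks), chr3L:3000001-4000000 (42), chr3L:1-1000000 (33), chr3L:17000001-18000000 (27), and chr3L:9000001-10000000 and chr3L:19000001-20000000 (26 each). The first 3 of these alone carried 118 peaks, 23.4% of the arm, and they were not neighbours of one another. Within each of them the peaks were concentrated further. In window 1, 22 of 33 peaks lay in chr3L:500001-700000. In window 4, 14 of 42 lay in chr3L:3400001-3500000. In window 9, 21 of 43 lay in chr3L:8500001-8700000. The sparsest full windows were chr3L:22000001-23000000 (9 peaks), chr3L:2000001-3000000 (10), chr3L:10000001-11000000 (12), chr3L:6000001-7000000 (13) and chr3L:13000001-14000000 (14). One of these sparse windows, chr3L:2000001-3000000, lay directly between windows of 25 and 42 peaks.

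Over blocks of 5 Mb the counts were 134, 121, 80, 111 and, in the shorter last block up to the final peak, 58. These correspond to 26.8, 24.2, 16.0, 22.2 and 17.8 peaks per Mb. By these values the block chr3L:10000001-15000000 was the sparsest of the 5. The last block was measured only up to the final peak, and any empty sequence beyond it would lower its value. Whether chr3L:10000001-15000000 was sparser than the last block is therefore not settled. When the arm up to its last peak was divided into 3 parts of equal length, the contrast was smaller. The telomere part had 178 peaks, the middle part 167 and the centromere part 159.

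With the arm ended at its last peak, the quartiles of the peak positions on 3L lay nearer to the telomere than an even spread gives. The lower quartile lay at 18.8% of the arm, the median at 42.4% and the upper quartile at 73.5%. Arm 2L had a similar median position, 42.7%, whereas 3R stood at 51.3% and X at 56.4%. The telomere-side part up to the middle of the arm held 56.7% of the 3L peaks, 55.1% of those on 2L, 49.8% on 3R and 44.9% on X. The lower quartiles of the other arms lay at 22.3% on 2L, 27.7% on 3R and 32.3% on X, and their upper quartiles at 73.8%, 74.7% and 74.2%. The arms were thus closest to each other at the upper quartile, toward the centromere, and farthest apart at the median and the lower quartile.

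**Figure D2:**
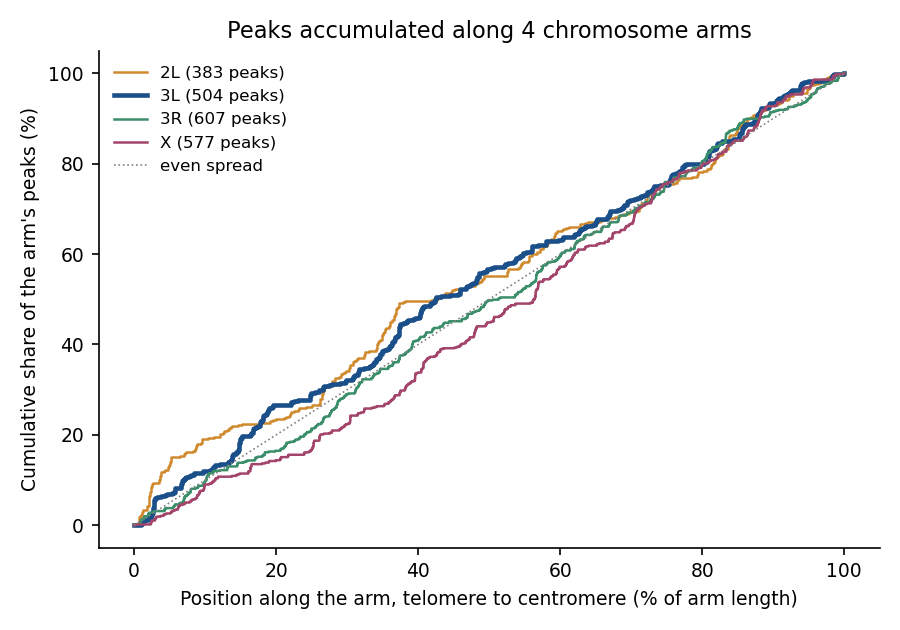
Cumulative share of each arm's peaks (vertical axis, %) against position along the arm from telomere to centromere (horizontal axis, % of arm length up to the last peak) for 2L, 3L, 3R and X, with an even spread as a dotted line. The curve of 3L reaches its median at 42.4% of the arm, near that of 2L, while the median of X lies at 56.4%.

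At the telomere end, the first peak lay 224 kb from coordinate 0, farther than on 2L (72.8 kb) and X (33.5 kb), the other arms whose telomere is at the low end. The first 1 Mb held 33 peaks, against 46 on 2L, 19 on 3R and 15 on X. The telomere end of 3R was taken at the end of its last peak, that of the other arms at coordinate 0. Empty sequence at the very end was thus counted on the other arms but not on 3R. The centromere end of 3L was thin. Its last full window held 9 peaks, and its last peak stood alone, 349 kb from the nearest other midpoint, which made it the most isolated peak of the arm. The last full window held 14 peaks on 2L and 17 on X, and the first window of 3R, at its centromere end, held 20. On 2L, 3L and X the windows stop at the last peak, so sequence beyond it is left out.

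The counts of the 1-Mb windows of 3L had a variance 3.62 times their mean, where independent counts of 1 common density would have equal variance and mean. This ratio was 6.72 on 2L, 3.46 on 3R and 2.97 on X. The range on 3L was 9 to 43 peaks per window, against 5 to 46 on 2L, 6 to 34 on 3R and 12 to 44 on X.

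At a finer scale, 66 of the 232 full windows of 100 kb on 3L held no peak (28.4%), and 59 held 1. The share of windows without a peak was 34.6% on 2L, 28.1% on 3R and 26.6% on X. At the other extreme, 26 windows of 3L held 6 peaks or more (11.2%). These windows carried 201 peaks, 39.96% of those counted. The corresponding share of peaks was 39.1% on X, 24.3% on 3R and 22.8% on 2L. Arms 3L and 3R thus had like overall densities and like shares of empty windows, but unlike shares of peaks in windows of 6 or more. That contrast depends on the cut at 6. Exactly 6 peaks were held by 13 windows of 3L and 3 of 3R, but exactly 5 by 10 and 17, and exactly 7 by 5 and 6. Other cuts were not tried. The most crowded window of the arm was chr3L:600001-700000 with 16 peaks, which was also the highest count on the 4 arms. It was followed by chr3L:3400001-3500000 and chr3L:8600001-8700000 with 14 each, and the maxima of the other arms were 12 on 2L and 13 on both 3R and X.

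Long stretches without a peak took up a large part of 3L. Between neighbouring peaks there were 20 stretches of 200 kb or more, together 6.71 Mb, or 29.1% of the distance from the first to the last peak. The share was 36.7% on 2L (25 stretches), 28.7% on 3R (27) and 31.0% on X (22). Stretches of 300 kb or more numbered 10 on 3L and made up 18.6% of it, against 22.2% on 2L, 12.0% on 3R and 15.8% on X.

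The 3 longest stretches between neighbouring peaks of 3L lay far apart. The sequence beyond the last peak was not measured and is not ranked here. The longest, chr3L:22070551-22710171, was 640 kb long and lay near the centromere end, at 96.3% of the arm. The second, chr3L:18056772-18665664 with 609 kb, separated a group of 8 peaks from a group of 23. The third, chr3L:4542146-5131468 with 589 kb, followed directly on the largest group of the arm and lay at 20.8%. The other 7 stretches of 300 kb or more were chr3L:5354180-5743080 (389 kb), chr3L:13496693-13870003 (373 kb), chr3L:14047521-14402458 (355 kb), chr3L:22902886-23251332 (348 kb), chr3L:11783401-12117306 (334 kb), chr3L:19252054-19578542 (326 kb) and chr3L:10032076-10355829 (324 kb).

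Of the 20 stretches of 200 kb or more, 5 began in the first 5 Mb, although that block was the densest of the arm. The second block, chr3L:5000001-10000000, had 1 that began in it, of 389 kb. Blocks 3 and 4 had 5 each and the last block 4. Cut at the borders of the blocks, these stretches took up 1.45 Mb of the first block and 0.520 Mb of the second. The densest block thus also held long empty stretches, while the second densest, with 24.2 peaks per Mb, had the least of them by length.

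Taking stretches of 100 kb or more as borders, the peaks of 3L fell into 71 groups, separated by 13.5 Mb of empty sequence (58.6% of the distance from the first to the last peak). Of these groups, 15 were single peaks. The 18 groups with 10 peaks or more held 322 peaks, 63.9% of the arm's peaks, in 6.53 Mb, 28.1% of its length, at 49.3 peaks per Mb. The same definition gave 52.7% of peaks in 17.3% of the length on 2L, 55.5% in 24.9% on 3R and 67.1% in 30.8% on X. Within these groups the density was 51.2 per Mb on 2L, 48.6 on 3R and 56.5 on X.

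The largest group on 3L was chr3L:3789162-4542145, with 34 peaks in 753 kb. Directly before it, beyond an empty stretch of 245 kb, lay chr3L:3077484-3543865, with 32 peaks in 466 kb. The next were chr3L:8293079-8792275 with 30 peaks in 499 kb and chr3L:442774-872084 with 27 peaks in 429 kb. The centromere side of the arm also had large groups, with 23 peaks in chr3L:18665665-19133847 and 18 peaks in chr3L:20179413-20534318.

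Neighbouring midpoints on 3L were 16.7 kb apart at the median, with quartiles of 4.24 and 52.5 kb. The mean distance was 45.8 kb, 2.75 times the median. The median distance was 24.4 kb on 2L, 17.5 kb on 3R and 11.6 kb on X. The mean distance of 3R, 45.8 kb, equalled that of 3L to 3 digits, but its lower quartile was longer, 5.39 kb. Another peak lay within 5 kb for 224 of the 504 peaks of 3L, 44.4% (exact binomial 95% interval 40.1 to 48.9%). The share was 39.4% on 3R (35.5 to 43.4%), 35.8% on 2L (31.0 to 40.8%) and 52.7% on X (48.5 to 56.8%). The interval of 3L overlapped with those of the other 3 arms, with those of 2L and X only at their edges.

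**Figure D3:**
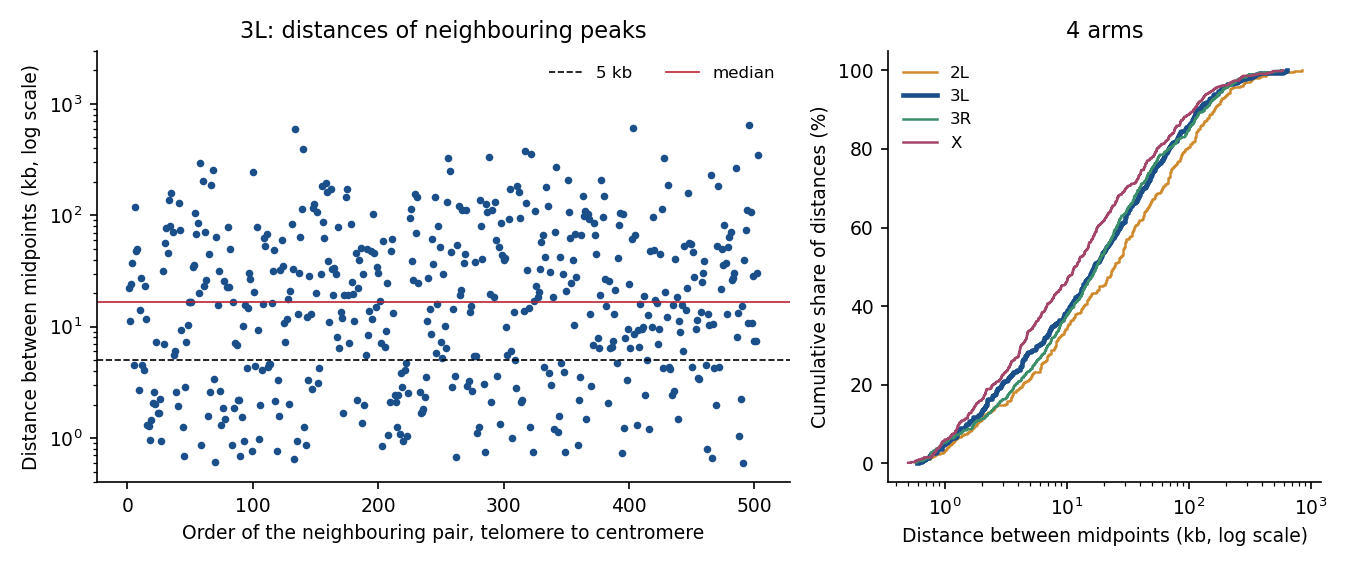
Left, distance between the midpoints of neighbouring peaks on 3L (vertical axis, kb, log scale) in order from telomere to centromere (horizontal axis), with dashed line at 5 kb and red line at the median of 16.7 kb. Right, cumulative share of these distances (vertical axis, %) against distance (horizontal axis, kb, log scale) for 4 arms, where the 3L curve lies near that of 3R, between 2L on its right and X on its left.

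Close neighbours were less common in each part of 3L than in the part before it. Of the peaks in the telomere part, 90 of 178 had another within 5 kb (50.6%). In the middle part there were 75 of 167 (44.9%), and in the centromere part 59 of 159 (37.1%). The density of the telomere part was 22.97 peaks per Mb and that of the centromere part 20.5. On 2L the share was 48.0% in the telomere part and 25.2% in the centromere part, at densities of 19.4 and 16.1 per Mb. On 3R it was 36.2% on the telomere side and 41.7% on the centromere side, and on X 55.0% and 54.4%. Among single windows of 3L, window 4 had 30 of 42 peaks with a close neighbour, whereas window 18 had 10 of 27, window 8 had 4 of 24 and window 23 had 0 of 9.

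Linking neighbouring midpoints at up to 5 kb divided the 504 peaks into 280 that stood alone, 53 pairs and 29 runs of 3 or more. The runs held 118 peaks, 23.4% of the arm, against 17.5% on 2L, 16.6% on 3R and 29.5% on X. They were short, 6.87 kb at the median (range 3.04 to 30.4 kb), and together covered 228 kb, 0.979% of the arm. Of the 29 runs, 17 had 3 peaks and 12 had 4 or more. Of these 12, 8 lay in the first 5 Mb, 2 in the second block, 2 in block 4 and none in block 3 or the last. Of the 118 peaks in runs, 54 lay in the telomere part, 41 in the middle part and 23 in the centromere part. On 2L these numbers were 33, 15 and 19 peaks, so that the telomere part held most there too. On 3R they were 33, 24 and 44, and on X 42, 63 and 65.

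The largest run, chr3L:8668378-8698806, had 13 peaks in 30.4 kb. Its peaks were 637 to 1326 bp wide, and they covered 35.9% of it. The gaps between peak edges, in order along the run, were 1289, 912, 392, 1747, 414, 3104, 2007, 199, 3415, 4119, 294 and 1605 bp. The spacing was thus irregular, with 4 gaps under 500 bp and 3 above 3 kb. Its median distance between midpoints was 2421 bp and its largest 4771 bp, just under the limit for linking.

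The second run, chr3L:627734-640961, had 8 peaks in 13.2 kb and was more compact, with peaks covering 71.8% of it. Its widths were 1187, 699, 875, 889, 1492, 1304, 1193 and 1853 bp, so that 5 of 8 exceeded 1000 bp. Its gaps were 366, 500, 82, 276, 663, 1346 and 503 bp. A run of 5 peaks, chr3L:646748-654208, followed, with 5.79 kb between the facing edges of both runs, with 67.5% covered and a median width of 1096 bp. A run of 3, chr3L:583974-593780, lay before both. These 3 runs made up the 16 peaks in runs of the first 1-Mb window.

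The remaining runs of 5 or more peaks were less packed than the run of 8. The run chr3L:9366641-9381308 had 7 peaks in 14.7 kb, with a median width of 1346 bp and 53.5% covered. The run chr3L:3432828-3440016 had 5 peaks of 346 to 754 bp and 37.9% covered. The run chr3L:4218972-4227662 had 5 peaks of 487 to 1174 bp and 49.7% covered. By number of peaks, the 13 of the largest run compare with maxima of 5 on 2L, 11 on 3R and 8 on X, while runs of 5 or more numbered 6 on 3L, 2 on 2L, 4 on 3R and 11 on X.

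**Figure D4:**
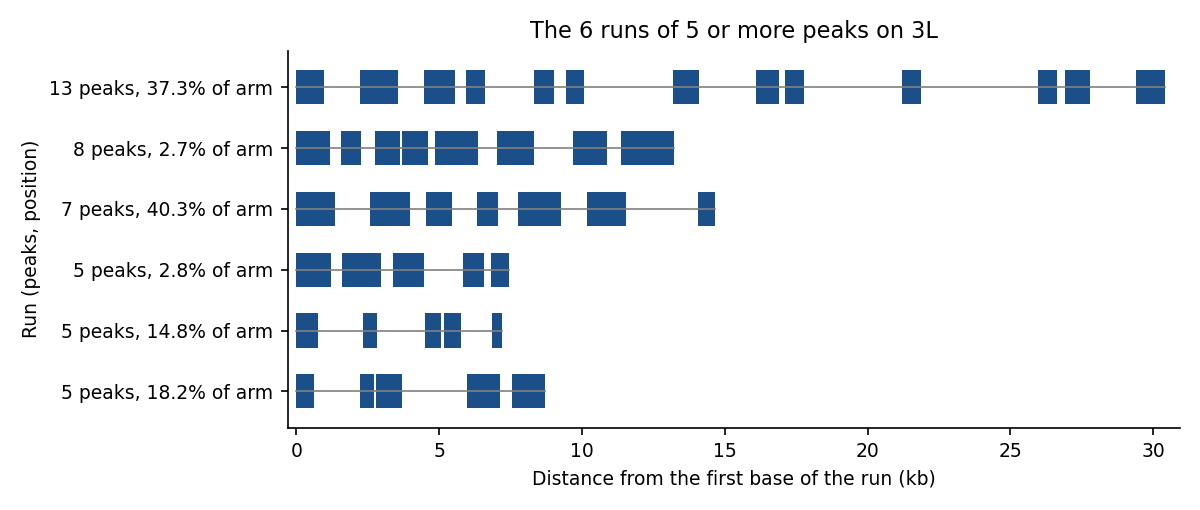
The 6 runs of 5 or more peaks on 3L drawn to scale, each row a run named by its number of peaks and its position along the arm, each blue box a peak; the horizontal axis is the distance from the first base of the run (kb). The run of 13 peaks spans 30.4 kb with wide gaps, and the run of 8 peaks fills 71.8% of its 13.2 kb.

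Many of the close neighbours nearly touched. Of 503 gaps between peak edges on 3L, 42 were 500 bp or shorter (8.35%) and 8 were 100 bp or shorter. The share at 500 bp or shorter was 7.59% on 2L, 7.76% on 3R and 9.20% on X. The smallest gap, 9 bp, separated the 2 peaks of chr3L:17839059-17840516, which were 715 and 734 bp wide. The next were 13 bp in chr3L:21833531-21834702, 44 bp in chr3L:10675456-10676778, 65 bp in chr3L:5743081-5745553 and 71 bp in chr3L:4221210-4222665. Whether such neighbours are separate sites or 1 site divided by the peak caller was not tested. Joining peaks at 500 bp or less left 462 peaks, of which 35.5% had another within 5 kb, and 20 runs of 3 or more.

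Peaks on 3L were 654 bp wide at the median. The quartiles were 524 and 837 bp, and widths ran from 279 to 1933 bp. The medians of 2L, 3R and X were 653, 679 and 630 bp. The telomere and centromere parts of 3L had like medians, 651.5 and 645 bp, a difference of -6.50 bp (centromere minus telomere), and the middle part 673 bp. The sign of that difference was not stable: among peaks with no other within 5 kb it was 40.5 bp. On 2L the same difference was -84.0 bp, on 3R -29.0 bp and on X -11.0 bp.

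The wide tail differed more along the arm than the median did. Peaks wider than 1000 bp numbered 77 on 3L, 15.3% (exact binomial 95% interval 12.2 to 18.7%). In the telomere part they were 36 of 178 (20.2%), in the middle part 21 of 167 (12.6%) and in the centromere part 20 of 159 (12.6%). The first window had 11 of 33 such peaks (33.3%, interval 18.0 to 51.8%) and the highest median of the full windows, 828 bp. Without that window, the share in the telomere part was 17.2% (interval 11.5 to 24.4%), an interval that includes the 12.6% of the other parts. Windows 11 to 19, from 10 to 19 Mb, were picked out after their values were seen: only 7 of their 165 peaks exceeded 1000 bp (4.24%), against 70 of 339 elsewhere on the arm (20.6%). Because of that choice no interval is given, and no such stretch is shown for the other arms. These 9 windows include the block chr3L:10000001-15000000, with 16.0 peaks per Mb, but also window 18, with 27 peaks of which 2 were that wide. Median widths there differed less, 629 bp inside and 671 bp outside. On 2L the share wider than 1000 bp was 18.2% in the telomere part and 8.13% in the centromere part. On 3R it was 17.9% and 12.6%, with the middle part above both, and on X 10.1% and 15.3%. The telomere part thus exceeded the centromere part on 2L and 3R too, but not on X. The first window of 2L had 12 of 46 such peaks and a median of 801.5 bp. That of X had 4 of 15 and 677 bp.

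**Figure D5:**
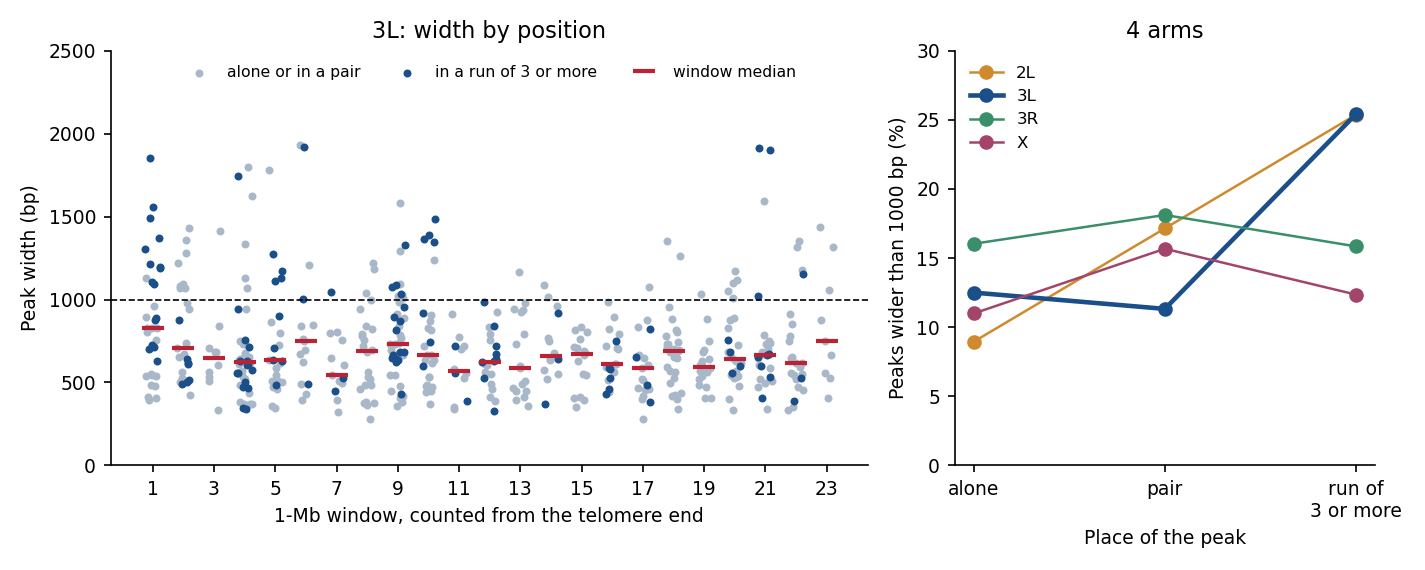
Left, width (bp) of every 3L peak in the full 1-Mb windows counted from the telomere end, with window medians as red bars and a dashed line at 1000 bp; the first window has the highest median shown, 828 bp, and few peaks of windows 11 to 19 pass the line. Right, share of peaks wider than 1000 bp (%) among peaks alone, in pairs and in runs of 3 or more, where 3L has 12.5% alone and 25.4% in runs.

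Wide peaks were more frequent inside runs. Of the 118 peaks in runs of 3 or more on 3L, 30 were wider than 1000 bp (25.4%, exact binomial 95% interval 17.9 to 34.3%), against 35 of 280 peaks that stood alone (12.5%, 8.86 to 17.0%) and 12 of 106 in pairs (11.3%, 5.99 to 18.9%). The intervals of runs and lone peaks did not overlap, but those intervals treat peaks of 1 run as independent. The 3 runs of 7 or more contributed 12 of these 30 wide peaks. Without them 18 of 90 were that wide (interval 12.3 to 29.8%), and without the first window the share was 19.6% (12.4 to 28.6%). Both of these intervals overlapped with that of the lone peaks. The medians were 671.5 bp in runs and 653.5 bp alone, a difference of 18.0 bp, which was 124.5 bp after peaks within 500 bp of each other were merged. On 2L the share was 8.94% alone and 25.4% in runs, on 3R 16.0% and 15.8%, and on X 10.99% and 12.4%. Within 3L, 18 of the 54 peaks in runs of the telomere part were that wide (33.3%), against 8 of 41 in the middle part and 4 of 23 in the centromere part.

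On 3L, peaks far from any other were narrower at the median. The 120 peaks of 3L with the nearest midpoint 20 to 100 kb away had a median of 608.5 bp and the 15 peaks beyond 100 kb one of 553 bp, against 695 bp for the 145 peaks at 5 to 20 kb. Peaks with a neighbour within 2 kb were 643 bp wide at the median, and those with one at 2 to 5 kb 680 bp. The order was therefore not monotonic, with the widest median at an intermediate distance. On 2L, 3R and X the class of 20 to 100 kb had medians of 590, 612 and 561 bp, in each case below the 649.5, 697 and 618 bp of the class of 5 to 20 kb. Beyond 100 kb the medians were 563 bp on 2L (21 peaks), 591 bp on 3R (17 peaks) and 666.5 bp on X (6 peaks), so that on X these few peaks were not narrower.

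The 10 widest peaks of 3L lay both inside and outside runs. The widest was chr3L:5802562-5804494 with 1933 bp, a member of a pair. It was followed by chr3L:5743081-5745000 with 1920 bp, in a run of 3 that was 94.99% covered by its peaks. The next 2, chr3L:20389595-20391507 (1913 bp) and chr3L:20393077-20394980 (1904 bp), were neighbours in 1 run. They were followed by chr3L:639109-640961 (1853 bp), the last peak of the run of 8, and chr3L:3418277-3420074 (1798 bp). The other 4 were chr3L:4137755-4139537 (1783 bp), chr3L:3195057-3196800 (1744 bp), chr3L:3145177-3146802 (1626 bp) and chr3L:20294416-20296009 (1594 bp). Of the 10, 7 lay in the first 6 Mb of the arm, within the telomere part that held 35.3% of all its peaks, and 3 near 20 Mb. Only 2 of the 10 stood alone, against 55.6% of all peaks of the arm.

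Of the 5 narrowest peaks of 3L, 3 stood alone, near the 55.6% of all its peaks that did. The peak chr3L:7521344-7521622 had 279 bp and its nearest neighbour was 147 kb away. The peak chr3L:16683247-16683527 had 281 bp, with a neighbour 93.4 kb away. The other 3 of the narrowest 5 were chr3L:6946770-6947091 (322 bp, alone), chr3L:11550028-11550357 (330 bp, in a run of 3) and chr3L:21020836-21021166 (331 bp, in a pair).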

How the data were processed

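Wing-disc chromatin was sonicated to 200 to 500 bp and libraries were selected at 200 to 300 bp, per the labels' protocols. Bowtie 0.12.5 is named in the submitters' processing notes. How peaks were called, with which threshold, treatment of input and replicate libraries, and genome build, was not given in the sources used here. As the deposited list holds coordinates in bp and no score, no peak could be ranked except by width. Starts were taken as counted from 0 and printed from 1. The gene table at hand is of Release 6 and was not joined to the peaks.

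Peaks were placed by midpoint. Arm length ran from coordinate 0 to the last peak's end, which is at most the true length. The sequence beyond the last peak was not measured and can differ between arms. Densities, parts and positions in percent leave it out. Values were computed with Python 3.11.15, numpy 2.4.6, pandas 2.3.3 and scipy 1.17.1, and the functions were checked on simulated lists. Intervals are exact (Poisson or Clopper-Pearson, 95%). No test was made. The members and definitions were chosen with earlier results of these data known. Named peaks followed fixed rules: the 10 widest, 5 narrowest, 5 closest pairs, 5 largest runs with ties, stretches of 300 kb or more and the 5 densest and sparsest windows. Other named groups, windows, runs and peaks were chosen after their values were seen.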

Additional observations from a re-analysis of the deposited data

How the results depend on the processing

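The layout of 3L was recomputed with 36 other settings over 8 results. Merging peaks within 500 bp lowered the share with another within 5 kb from 44.4% to 35.5% and raised the width difference of runs against lone peaks from 18.0 to 124.5 bp, since merging itself widens peaks that nearly touch. With the 247 peaks of 3L that were at least as wide as the median of the whole list, 657 bp, density was 10.6 per Mb, the share within 5 kb 30.8%, the runs of 3 or more 8, and the share of the arm in empty stretches of 200 kb or more 64.1%; with the 257 narrower peaks density was 11.2 per Mb. Both lists have fewer peaks by construction. Empty stretches of 100 kb or more took 58.6% of the arm and those of 300 kb or more 18.6%. At 2 kb, 23.6% of peaks had a neighbour and there were 10 runs, and at 10 kb 58.9% and 44 runs. The variance of window counts stayed between 2.85 and 3.67 times the mean in each list, window size and shift tried, and the median position between 40.3 and 48.3% of the arm. The width difference between the telomere and centromere parts ran from -52.5 to 40.5 bp. For wide peaks in runs, 4 settings chosen after seeing the data gave 19.6 to 30.3%. No paired analysis was possible because the list has no value per library, and for the same reason no replicate could be left out. Depth is unknown, so sites missed by the calling are not counted.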

Other observations

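The separate sequence of mapped heterochromatin of the arm, 3LHet, held 3 further peaks that entered no comparison. They were chr3LHet:2195399-2195925 (527 bp), chr3LHet:2212365-2212902 (538 bp) and chr3LHet:2391717-2392257 (541 bp).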
